A study of Mus musculus with 12 samples.

Results

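The 40 genes described here encode the sensors and effectors of endoplasmic reticulum (ER) stress, the folding machinery of the ER and the cytosolic heat shock proteins. They were taken by gene symbol from the count table of the series, which lists 15855 genes, and 40 of 40 were present. All 40 also passed the filter on low counts, so none was lost before testing. By role they comprised 4 sensors and transcription factors of the unfolded protein response, 7 genes of the integrated stress response, 11 ER chaperones and co-chaperones, 4 protein disulfide isomerases, 4 genes of ER-associated degradation, 3 of the translocon and 7 cytosolic heat shock proteins.

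RNA was sequenced from EpCAM+ epithelial cells sorted from the whole small intestine of C57BL6/J mice, with EpCAM being a surface protein of epithelial cells. The sham group held 7 samples and the pMCAO group 5. Permanent middle cerebral artery occlusion (pMCAO) is a stroke model in which a main artery of the brain is blocked and not reopened, and both groups were collected 24 h after surgery. The labels name each sample as a biological replicate of its own, and no other treatment or allele distinguished the groups. According to the methods, the mice were males of 8 to 12 weeks, and the sham mice had the operation without the blockage of the artery. These are bulk samples, in which fewer cells of a type and less RNA per cell cannot be told apart.

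Proteins destined for secretion or for the cell surface enter the ER through the translocon, are folded there by chaperones and disulfide isomerases, and are removed by ER-associated degradation when folding fails. When unfolded proteins accumulate, the sensors IRE1, PERK and ATF6 switch on the unfolded protein response, which raises the transcription of chaperones through XBP1 and ATF6 and slows translation while favouring ATF4 and its targets. Goblet cells of the intestine secrete large amounts of mucin and rely on IRE1 beta, a sensor found mainly in mucus-producing epithelium.

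Total counts ranged from 7418730 to 31925579 per sample, and the mitochondrial ribosomal RNA genes took from 14.6 to 54.5% of them. The pMCAO samples had a mean total 8741400 counts higher than the sham samples (two-sided exact permutation test, p = 0.0934) and a mitochondrial ribosomal share with a mean difference of -11.1 percentage points (two-sided exact permutation test, p = 0.136). The titles number the libraries 58 to 68 and 72 without marking any division, and they were divided here into 3 runs of 4 in that order. The first run (58 to 61) stood apart from the other 8 libraries. It held sham 1, sham 2, sham 3 and pMCAO 1, that is 3 of 7 sham samples but 1 of 5 pMCAO samples, and between 13386 and 14712 genes had a count in it against 15343 to 15766 in the later libraries. Many results are therefore given with and without a term for the run. A value given on the group alone can still depend on these libraries. The summed level of 7 epithelial markers was between 5248 and 12510 CPM (counts scaled to a common library size) in all 12 samples, and the defining markers Epcam, Cdh1 and Vil1 were present in each.

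Of the 40 genes, 0 were called differentially expressed between pMCAO and sham (limma-voom, with an adjusted p no higher than 0.05 and a log2 fold change of 1 or more in either direction), where 0% of the 14462 genes tested were called. The smallest adjusted p among them was 0.350. Without the adjustment, 6 of the 40 were lower and 1 was higher in pMCAO at p under 0.05, where 3.77% of all genes tested were lower and 4.66% were higher at that level. The 6 lower genes were Ppp1r15a, Hsp90aa1, Hspa1a, Syvn1, Hspa1b and Ddit3, and the higher gene was Xbp1. The edgeR quasi-likelihood test called 0 of the 40, where it called 0% of all genes, and put 4 of them at an unadjusted p under 0.05 in either direction, where 6.43% of all genes were. DESeq2 called 0 of the 40, where it called 68 of the 14462 genes (0.47%), and put 4 of them at an unadjusted p under 0.05, where 7.97% of all genes were. The smallest adjusted p of the 40 in DESeq2 was 0.0533, for Ppp1r15a. The values of the groups overlapped for each of the 40 genes, as for nearly all genes. Of the 14462 genes tested, 28 had all pMCAO values below the sham values and 45 had all above. By sign alone, 23 genes were higher and 17 lower, with a median log2 fold change of 0.08 against 0.06 over all genes tested. TMM factors, which set the scale of each library from the bulk of its genes, were used for these values. With the total count as the scale, the median over all genes moved to 0.35, 28 of the 40 were higher, 0 of the 40 were called where 0.0207% of all genes were, and 1 gene (P4hb, higher) in place of 7 was at an unadjusted p under 0.05, where 7.79% of all genes were.

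With a term for the 3 runs of libraries, 0 of the 40 were called, where 0.353% of all genes were. Xbp1, P4hb and Asns were then higher and Ppp1r15a, Hsp90aa1, Syvn1 and Hsph1 lower at an unadjusted p under 0.05, where 5.76% and 5.03% of all genes were higher and lower. The smallest adjusted p of the 40 was 0.176 in that fit. Without the first run, 0 of the 40 were called, where 0% of all genes were, and 8 were at an unadjusted p under 0.05 in either direction, where 7.58% of all genes were.

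**Figure D1:**
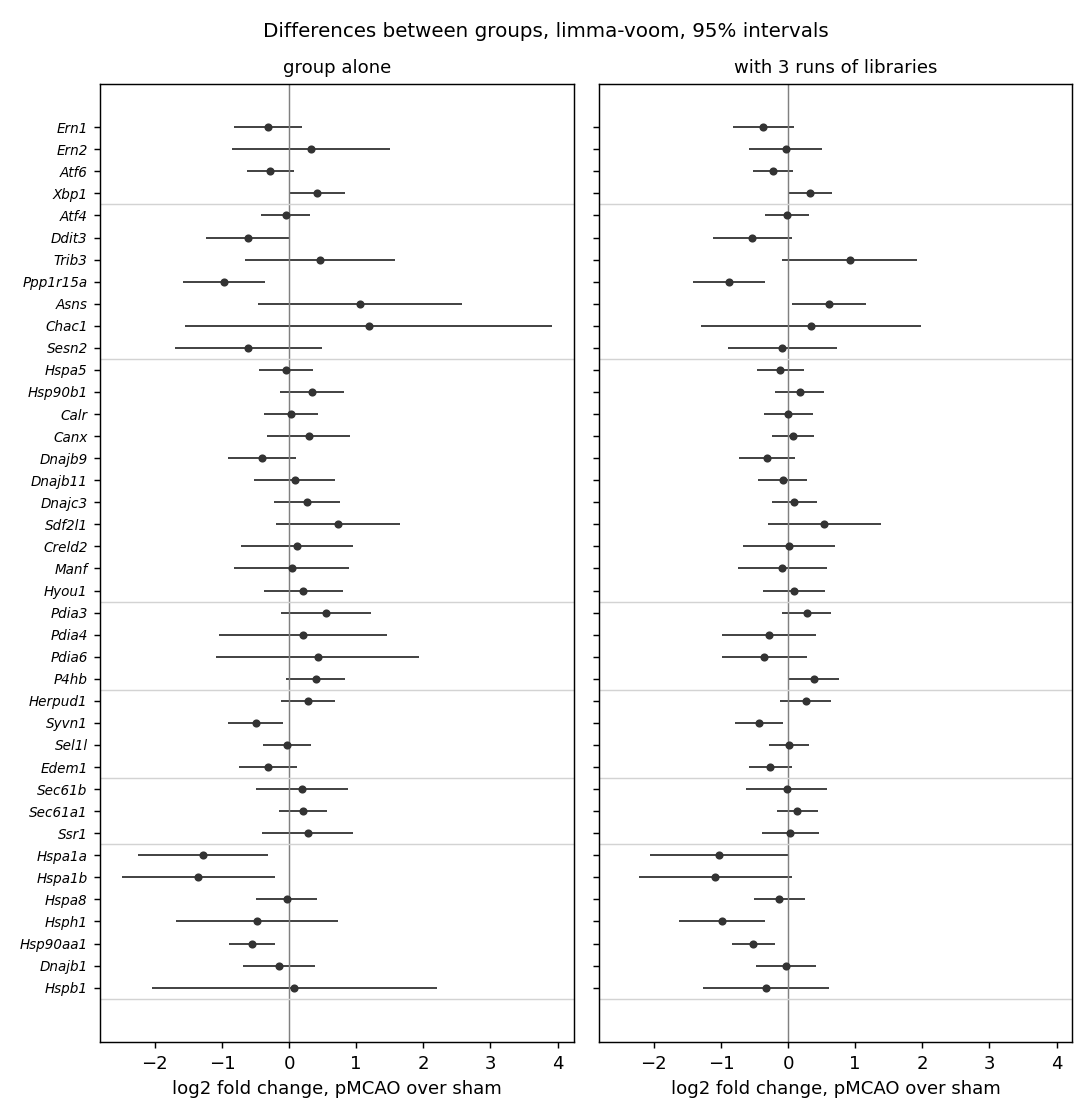
Log2 fold change of pMCAO over sham with its 95% interval for each of the 40 genes, in the limma-voom fit on the group alone (left) and with a term for 3 runs of libraries (right); grey lines part the roles. The intervals of Asns, Chac1, Pdia6, Ern2 and Hspb1 are wide on the left and narrower on the right, and 0 of the 40 genes passed the adjusted threshold in either panel.

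Among the sensors and transcription factors, Xbp1 was higher in pMCAO than in sham, and Ern1 and Atf6 had lower means. Xbp1 encodes the transcription factor that IRE1 activates by splicing its messenger RNA. Its level was 41.3, 61.6 and 86.4 CPM in the lowest, median and highest sham sample. In the pMCAO samples 1 to 5 it was 73.1, 113, 81.8, 79.4 and 88.0 CPM. The highest value of all belonged to pMCAO 2 and the lowest to a sham sample, while the 2 groups shared the range between 73.1 and 86.4 CPM. This was a log2 fold change of 0.42 with an SE of 0.20 (adjusted p = 0.592), or of 0.33 with the runs (adjusted p = 0.460). Within the runs the differences in mean log2 CPM were 0.57, 0.47 and 0.05. Gene counts do not separate the spliced from the unspliced form.

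Ern1 encodes IRE1 alpha, the sensor present in most cells. It lay between 21.8 and 38.6 CPM in sham (median 30.3), and in the pMCAO samples 1 to 5 it was 20.3, 41.2, 21.2, 17.4 and 20.4 CPM. Apart from pMCAO 2, each pMCAO sample was below the lowest sham value. The log2 fold change was -0.32 (SE 0.24, adjusted p = 0.717). Atf6, which encodes the sensor that is cut in the Golgi to release a transcription factor, ran from 47.5 to 78.0 CPM in sham (median 61.6) and was 54.7, 49.5, 41.1, 48.6 and 56.8 CPM in pMCAO. These values overlapped over most of the pMCAO range, with a log2 fold change of -0.28 and an SE of 0.16 (adjusted p = 0.647). With the runs the log2 fold change of Atf6 was -0.23.

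Ern2 encodes IRE1 beta, the form of mucus-producing epithelium. It ranged from 4.56 to 78.2 CPM in sham (median 37.9), and was 11.9, 77.7, 41.3, 31.7 and 44.2 CPM in pMCAO. The spread followed the run of libraries more than the group, since the first run lay between 4.56 and 15.3 CPM and the later libraries between 31.7 and 78.2 CPM. Its difference on the log2 scale was 0.33 on the group alone (SE 0.56, adjusted p = 0.887) and -0.04 with the runs.

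In the integrated stress response, Ppp1r15a and Ddit3 were lower in pMCAO while Atf4 itself had nearly equal means. ATF4 is the transcription factor whose translation rises when the initiation factor eIF2 is phosphorylated. Its messenger RNA ran from 61.2 to 106 CPM in sham (median 69.3) and was 85.4, 63.7, 72.8, 66.2 and 76.2 CPM in pMCAO. The pMCAO values all fell inside the sham range, and the log2 fold change was -0.05 with a 95% interval of -0.42 to 0.32 (adjusted p = 0.953).

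Ppp1r15a encodes GADD34, the phosphatase subunit that removes the phosphate from eIF2 and so restores translation. It was 18.2, 30.2 and 45.4 CPM in the lowest, median and highest sham sample. In the pMCAO samples 1 to 5 it was 15.1, 14.4, 18.4, 6.56 and 17.2 CPM. Of the pMCAO samples, pMCAO 3 alone reached the lowest sham value. The difference on the log2 scale was -0.97 with an SE of 0.29 (adjusted p = 0.350) and -0.88 when the runs were included (adjusted p = 0.176). The differences in mean log2 CPM within the 3 runs were -1.27, -0.53 and -1.19.

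Ddit3 encodes CHOP, a transcription factor linked to cell death under prolonged ER stress. It was between 14.8 and 30.5 CPM in sham (median 23.5), and 19.995, 9.98, 24.7, 7.68 and 16.1 CPM in pMCAO. The pMCAO samples 2 and 4 lay below the sham range and the other 3 inside it. On the log2 scale the difference was -0.62 with an SE of 0.29 (adjusted p = 0.592) and -0.53 with the runs, and within the runs the differences were -0.38, -0.01 and -1.26. Exons of Ddit3 and Ppp1r15a overlap those of genes on the opposite strand (Mars and Tulp2), and whether counting used strand was not stated.

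The other 4 genes of this group are targets of ATF4 and did not share a direction. The log2 fold changes were 1.06 for Asns, the asparagine synthetase (SE 0.72), 1.19 for Chac1, which degrades glutathione (SE 1.29), 0.47 for Trib3, a pseudokinase (SE 0.53), and -0.61 for Sesn2, an inhibitor of growth signalling (SE 0.52). With the runs these became 0.61, 0.34, 0.92 and -0.09, in the same order.

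The early-response genes that are induced by tissue handling differed in the same direction as Ppp1r15a. All 7 of those examined (Fos, Fosb, Jun, Junb, Egr1, Ier2 and Dusp1) were lower in pMCAO, 2 of them at an unadjusted p under 0.05, with a median log2 fold change of -0.37. Their summed level was 1211 to 2878 CPM in sham (median 2712) and 1099 to 2311 CPM in pMCAO (median 1718). With the total count as the scale 3 of the 7 were lower, with a median of 0.08 beside the 0.35 of all genes. The part of handling in the lower values of Ppp1r15a, Ddit3 and the heat shock genes was not tested.

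**Figure D2:**
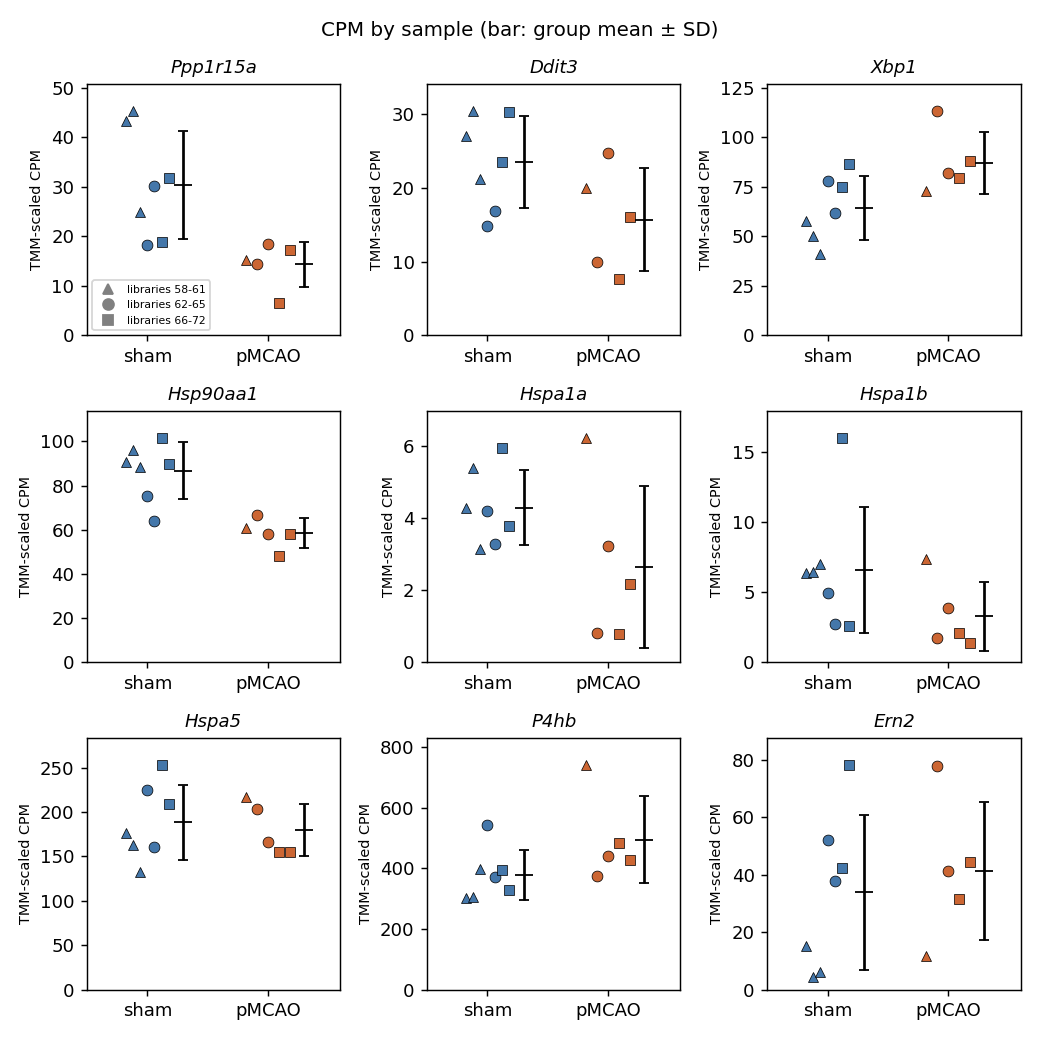
TMM-scaled CPM of 9 genes in each sham and pMCAO sample, with the mean ± SD of each group beside the points and the marker shape giving the run of libraries. The groups overlap in each panel. Ppp1r15a and Hsp90aa1 sit lower in most pMCAO samples, and the low values of Ern2 are the triangles of the first run.

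The ER chaperones were nearly level between the groups. Of the 11, 9 were higher and 2 lower by sign, 0 were at an unadjusted p under 0.05, and the median log2 fold change was 0.12. With the runs the split was 7 higher and 4 lower, with a median of 0.01. Hspa5 encodes BiP, the main chaperone of the ER lumen and the usual readout of the unfolded protein response. It was 132, 176 and 253 CPM in the lowest, median and highest sham sample, and 217, 204, 166, 155 and 155 CPM in the pMCAO samples 1 to 5. The pMCAO values lay inside the sham range. The log2 fold change was -0.05, with a 95% interval of -0.45 to 0.35 (adjusted p = 0.960), and became 0.23 with the total count as the scale, a shift of the size seen over all genes.

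The widest differences among the chaperones belonged to Sdf2l1 and Dnajb9, both co-factors of BiP. Sdf2l1 was 0.724, 2.43 and 7.5 CPM in the lowest, median and highest sham sample and 3.76, 6.43, 3.27, 3.68 and 5.58 CPM in pMCAO, with a log2 fold change of 0.73 and an SE of 0.44 (adjusted p = 0.653). Dnajb9 ran from 38.3 to 75.1 CPM in sham (median 59.3) and was 74.9, 32.9, 46.1, 30.5 and 38.6 CPM in pMCAO, with a log2 fold change of -0.40 and an SE of 0.24 (adjusted p = 0.648). With the runs the log2 fold changes became 0.54 for Sdf2l1 and -0.32 for Dnajb9. In both genes the pMCAO sample of the first run stood among its sham neighbours or above them. The remaining 8 chaperones, Hsp90b1, Calr, Canx, Dnajb11, Dnajc3, Creld2, Manf and Hyou1, had log2 fold changes between 0.03 and 0.34. Hsp90b1, which encodes GRP94, had the largest of these, 0.34 (SE 0.22), and Calr, the calcium-binding lectin calreticulin, had the smallest, 0.03 (SE 0.19). With the runs these 8 lay between -0.08 (Manf) and 0.18 (Hsp90b1).

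Chaperone promoters carry the ER stress response element, to which ATF6 and XBP1 bind together with NF-Y. Its letters are given here because they mark which of the genes searched hold the textbook target sequence of the pathway. RefSeq promoters of GRCm38.p6, from 250 bases before to 50 after the start, were matched for 33 of the 40 genes. The other 7 (Atf6, Ern2, Hsp90aa1, Hspa8, Hyou1, Manf and Sec61a1) had no promoter to search, so whether they hold an element is not known here. The element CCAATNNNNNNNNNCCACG, searched on both strands, was found in 8 of the 33, or 24.2%, and in 37 of all 27025 genes, or 0.137%. The 8 were Hspa5, Hsp90b1, Calr, Canx, Dnajc3, Creld2, Pdia6 and Syvn1, of which 6 are chaperones. The windows below are written 5′ to 3′ on the strand of the gene, with the element in capitals, for the 7 genes that hold it once. Hsp90b1 holds it 2 times, once on each strand, over a longer window that is not printed. In Calr and Creld2 the element lies on the opposite strand, so its capitals read as the reverse complement. The Hspa5 window lies before the RefSeq start and meets an exon of the longer GENCODE gene.
Hspa5, chr2:34772020-34772048, + strand: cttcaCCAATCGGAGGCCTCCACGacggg
Canx, chr11:50325790-50325828, - strand: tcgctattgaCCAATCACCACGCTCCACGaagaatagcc
Calr, chr8:84847065-84847103, - strand: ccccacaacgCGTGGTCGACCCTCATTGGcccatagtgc
Dnajc3, chr14:118937817-118937855, + strand: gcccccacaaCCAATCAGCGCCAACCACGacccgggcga
Creld2, chr15:88819510-88819548, + strand: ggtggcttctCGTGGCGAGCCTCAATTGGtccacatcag
Pdia6, chr12:17266481-17266519, + strand: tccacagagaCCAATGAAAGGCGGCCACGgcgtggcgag
Syvn1, chr19:6046522-6046560, + strand: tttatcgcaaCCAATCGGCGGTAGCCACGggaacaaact

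The genes with this element did not share a direction, as Syvn1 had a log2 fold change of -0.50, Hspa5 of -0.05, Calr of 0.03, Creld2 of 0.12, Dnajc3 of 0.26, Canx of 0.29, Hsp90b1 of 0.34 and Pdia6 of 0.43. With the runs these became -0.43, -0.12, 0.006, 0.01, 0.09, 0.07, 0.18 and -0.35, in the same order. The second form, ATTGGNCCACG, was found in Dnajb11 and Herpud1, 6.06% of the 33 genes against 0.0444% of all genes. The ATF4 element TGATGNAA was found in Asns, Chac1, Herpud1 and Trib3, 12.1% against 4.51%. A heat shock element, GAANNTTCNNGAA or TTCNNGAANNTTC, was found in Hsph1 alone of the 33, 3.03% against 0.662%. Of the 7 cytosolic heat shock genes 5 were searched, without Hsp90aa1 and Hspa8. Other spellings of the elements and bases outside the window were not searched. A match describes the letters of the window and is no evidence of binding in these cells. The windows of the ATF4 element are given for the 3 genes in which it lies before the RefSeq start, with the element in capitals and, in Chac1 and Herpud1, as its reverse complement. The Asns window meets an exon of the longer GENCODE gene.
Asns, chr6:7693220-7693237, - strand: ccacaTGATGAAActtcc
Chac1, chr2:119351039-119351066, + strand: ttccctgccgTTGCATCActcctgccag
Herpud1, chr8:94386307-94386334, + strand: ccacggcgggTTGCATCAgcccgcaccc

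All 4 protein disulfide isomerases, the enzymes that form and reshuffle disulfide bonds, had a positive log2 fold change on the group alone, with a median of 0.41. With the runs 2 of the 4 did, with a median of -0.004. The mean of Pdia6 in CPM was not higher, at 11.5 in sham and 11.3 in pMCAO. P4hb, the most abundant of the 40 genes per kilobase of exon (132 CPM in sham), ran from 301 to 542 CPM in sham (median 373). In the pMCAO samples 1 to 5 it was 741, 374, 440, 485 and 428 CPM. The value of pMCAO 1 exceeded every other sample, and the other 4 lay inside the sham range. Its log2 fold change of 0.39 had an SE of 0.21 (adjusted p = 0.624) and was 0.38 with the runs (adjusted p = 0.463), with differences within the runs of 1.16, -0.15 and 0.34.

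Pdia3, the isomerase that works with calnexin and calreticulin on glycoproteins, was 30.4, 91.3 and 113 CPM in the lowest, median and highest sham sample. It was 77.5, 135, 87.7, 111 and 110 CPM in pMCAO. The 3 sham samples of the first run, between 30.4 and 43.3 CPM, set the low end. A log2 fold change of 0.55 was found on the group alone with an SE of 0.32 (adjusted p = 0.645), 0.28 with the runs, and 1.07, 0.14 and 0.07 within them. Pdia4 and Pdia6 had log2 fold changes of 0.21 (SE 0.59) and 0.43 (SE 0.71), and of -0.29 and -0.35 with the runs.

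In ER-associated degradation, Syvn1 was lower in pMCAO. It encodes HRD1, the ubiquitin ligase that marks misfolded ER proteins for the proteasome. Its level was 49.8, 68.3 and 85.8 CPM in the lowest, median and highest sham sample and 58.5, 43.3, 52.8, 38.9 and 36.5 CPM in pMCAO. In pMCAO, 3 samples lay below the sham range and 2 at its low end. Its log2 fold change of -0.50 had an SE of 0.19 (adjusted p = 0.512) and was -0.43 with the runs (adjusted p = 0.361), with differences of -0.38, -0.14 and -0.73 within them. Exons of Syvn1 overlap Mrpl49 on the opposite strand over 91 of 4859 bases of exon.

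The partners of HRD1 had smaller differences in either direction. Sel1l, its adaptor, had a log2 fold change of -0.03 (SE 0.17), Herpud1, which assembles the complex, one of 0.28 (SE 0.19), and Edem1, a lectin that selects glycoproteins for disposal, one of -0.32 (SE 0.20). The translocon genes Sec61a1, Sec61b and Ssr1, which form or accompany the channel into the ER, had log2 fold changes of 0.21 (SE 0.17), 0.20 (SE 0.32) and 0.28 (SE 0.32), and of 0.14, -0.02 and 0.04 with the runs.

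The direction of the ER folding genes as a whole changed with the handling of the first run of libraries. Of the 22 chaperones, isomerases, degradation and translocon genes, 17 were higher and 5 lower in pMCAO on the group alone. Over all genes tested, 7986 were higher and 6476 lower in that fit. These signs are on the TMM scale, and with the total count as the scale 28 in place of 23 of the 40 genes were higher. With the runs 13 were higher and 9 lower. Without the first run, 7 were higher and 15 lower. In none of the 3 fits was any of the 22 called.

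Of the 7 roles, the cytosolic heat shock proteins had the lowest median, a log2 fold change of -0.47 on the group alone and -0.52 with the runs, and -0.11 with the total count as the scale. Of the 7, 6 were lower in pMCAO on the group alone, 7 with the runs, and 4 with the total count as the scale. At an unadjusted p under 0.05 there were 3, 2 and 0 of them, in the same order.

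Hsp90aa1 encodes the inducible form of the HSP90 chaperone. It was 63.8, 90.0 and 102 CPM in the lowest, median and highest sham sample. In the pMCAO samples 1 to 5 it was 60.8, 66.9, 58.3, 48.3 and 58.3 CPM. Only pMCAO 2 exceeded the lowest sham value. On the log2 scale this was -0.55 with an SE of 0.16 (adjusted p = 0.350), and -0.52 with the runs (adjusted p = 0.185), with differences of -0.59, -0.15 and -0.85 within them.

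Hspa1a and Hspa1b encode the inducible HSP70 and are neighbours on chromosome 17 (34969190 to 34972156 and 34956436 to 34959238, both on the minus strand). Their transcripts share long identical stretches, as 60.4% of the 50-base words of Hspa1a and 62.3% of those of Hspa1b also occur in other genes, 58.8% and 62.3% in each other, so the split of reads between them is uncertain. Hspa1a also overlaps exons of Gm20481 on the opposite strand over 564 of its 2967 bases of exon. Hspa1a was 3.14, 4.20 and 5.94 CPM in the lowest, median and highest sham sample and 6.24, 0.818, 3.23, 0.800 and 2.19 CPM in pMCAO. Of the pMCAO samples, 3 lay below the sham range, and pMCAO 1, of the first run, lay above it. Its difference was -1.28 on the log2 scale with an SE of 0.46 (adjusted p = 0.480), with differences of 0.57, -1.13 and -1.75 within the runs. With the runs in the fit it was -1.03 (SE 0.49, adjusted p = 0.467). Hspa1b was 2.62, 6.37 and 16.0 CPM in the lowest, median and highest sham sample and 7.35, 1.78, 3.90, 2.08 and 1.36 CPM in pMCAO. Again pMCAO 1 stood above the other pMCAO samples, and the log2 fold change was -1.35 (SE 0.54, adjusted p = 0.525). For Hspa1b it was -1.08 with the runs (SE 0.54, adjusted p = 0.487), with differences of 0.15, -0.48 and -1.89 within them.

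Hsph1, which encodes the HSP110 that recharges HSP70, had a log2 fold change of -0.47 on the group alone (SE 0.57, adjusted p = 0.837) and -0.98 with the runs (SE 0.31, adjusted p = 0.211). Its sham values ran from 1.59 to 24.2 CPM and its pMCAO values from 4.02 to 14.4 CPM. Hspa8, the constitutive HSP70, had a log2 fold change of -0.04 (SE 0.21), Dnajb1, the main HSP40, one of -0.15 (SE 0.25), and Hspb1, the small heat shock protein HSP25, one of 0.08 (SE 1.00). With the runs these became -0.13, -0.04 and -0.33, in the same order. Reads of Hsp90aa1, Hspa8 and Hspb1 can also fall on processed copies elsewhere in the genome, since 58.5, 51.4 and 51.7% of their 50-base words are shared with other genes.

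The largest differences among the 40 genes were between the runs of libraries. In 11 of them the 4 libraries of the first run all lay below the 8 later ones, where 9.4% of all genes tested did so, and in 0 of them all lay above, where 5.46% of all genes did. These counts describe the libraries, were looked at because the first run was known to stand apart, and carry no test. With the total count as the scale 17 of the 40 lay below, and the share over all genes was not counted on that scale. The TMM factors were 0.56 to 0.79 in the first run and 0.99 to 1.52 in the later libraries. The total count therefore lowers every gene of the first run against the later libraries, and the 17 are no trait of these genes alone.

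The 11 genes were spread over the roles. They were the isomerases Pdia3, Pdia4 and Pdia6, the chaperones Canx, Hyou1 and Dnajb11, the translocon gene Ssr1, the sensor Ern2, the ATF4 targets Asns and Chac1, and the heat shock gene Hspb1. Pdia6 was at 0, 1.99, 2.17 and 3.93 CPM in the first run and between 11 and 28.1 CPM in the later libraries. Asns was between 0.207 and 2.65 CPM in the first run and between 9.54 and 20.6 CPM later. Pdia4 was between 0.717 and 2.90 CPM and then between 5.37 and 14.3 CPM. The counts behind the low values were small, at most 46 for Pdia6, 23 for Asns and 25 for Pdia4 in any library of the first run.

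Chac1 had 1 count in sham 2 and 0 in the other 3 libraries of the first run, and between 0.289 and 20.03 CPM in the later libraries. Hspb1 had 5, 2, 0 and 0 counts in the first run and between 1.48 and 4.71 CPM later. The floor of 3 counts corresponded to at most 0.724 CPM in any library, so low levels of these genes could have been missed in the first run.

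Canx and Ssr1 were present at moderate levels in both sets of libraries. Canx, the membrane-bound lectin chaperone, was between 46.3 and 75.1 CPM in the first run and between 105 and 142 CPM later. Ssr1, a subunit of the translocon-associated complex, was between 7.00 and 21.4 CPM and then between 25.4 and 43.3 CPM. Hspa5 overlapped, with 132 to 217 CPM in the first run and 155 to 253 CPM later, as did Calr, with 63 to 114 and 65.4 to 112 CPM. Across the 40 genes the difference between the first run and the later libraries was hardly related to exon length (Spearman's rho 0.11 across genes, n = 40) or to the level in the later libraries (0.11). The genes share the same 12 libraries and are not independent.

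**Figure D3:**
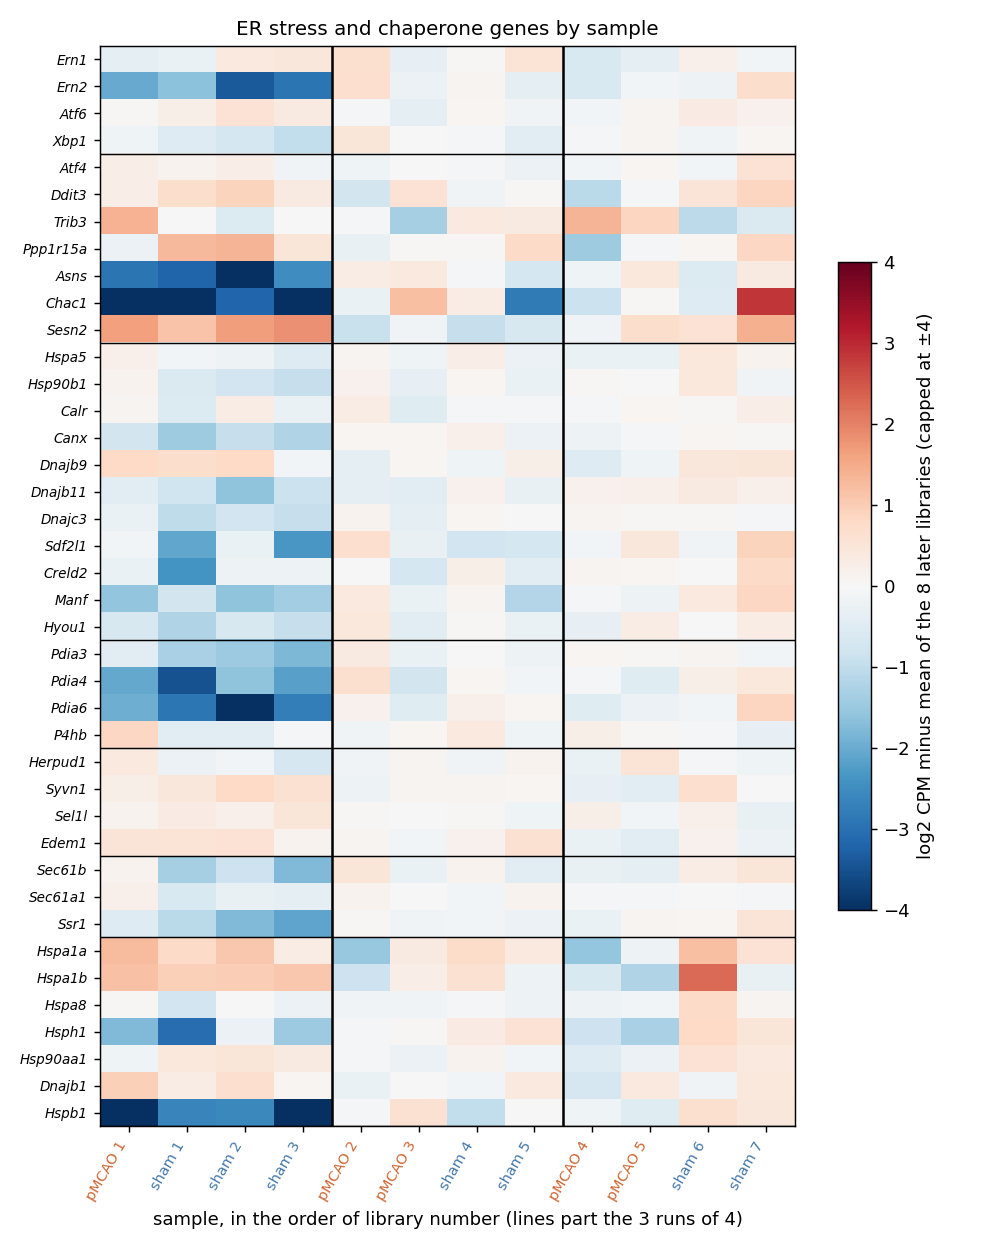
Log2 CPM of each of the 40 genes (rows, ordered by role) in the 12 samples (columns, ordered by library number), as the difference from the mean of the 8 later libraries and capped at ±4. The 4 columns of the first run are blue for the isomerases Pdia3, Pdia4 and Pdia6, for Asns, Chac1, Ern2 and Hspb1, while Hspa5, Calr, Atf4 and Sel1l are pale throughout.

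Markers of several cell types, not all of them secretory, were shifted in the same libraries. All 8 goblet cell markers, all 6 enteroendocrine markers and all 4 tuft cell markers were lower in each library of the first run than in any later one. The summed goblet markers, led by Muc2, the main intestinal mucin, reached 4136 to 8119 CPM in the first run and 20601 to 55241 CPM later. The enteroendocrine sum was 142 to 234 CPM in the first run and 1103 to 2063 CPM later. Markers of T cells and leukocytes had a mean log2 difference of -2.43 between the first run and the later libraries. It was -2.23 for Paneth cell markers and -2.62 for goblet markers. Of the leukocyte and Paneth markers tested, 0 were lower in each library of the first run than in any later one. Of 7 epithelial markers, 5 were higher in each library of the first run than in any later one, and Krt19 was lower. The enterocyte sum overlapped, with 20073 to 52193 CPM in the first run and 14887 to 27348 CPM later. The part of secretory cell number in the low Ern2, Pdia4 and Pdia6 of the first run was not tested.

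Between pMCAO and sham, the 8 goblet markers all had a positive log2 fold change on the group alone, with a median of 0.85. The mean of Agr2 in CPM was not higher, at 300 in sham and 279 in pMCAO. With the runs 7 markers were higher and 1 lower, with a median of 0.32. In either fit 0 were at an unadjusted p under 0.05. The 8 enterocyte markers had a median of 0.63, with 4 higher at that level, and of 0.53 with the runs, with 8 of 8 higher by sign and 5 at that level. In that fit Sis, the sucrase-isomaltase of the brush border, was at an adjusted p of 0.0258 (limma-voom, log2 fold change 0.89, SE 0.17). Markers of T cells and leukocytes summed to 28.7 to 594 CPM in sham and 54.8 to 399 CPM in pMCAO, those of plasma and B cells (5 of 6 listed) to 7.74 to 57.4 and 10.6 to 58.1 CPM, those of Paneth cells (6 of 7 listed) to 3.11 to 74.3 and 6.24 to 36.9 CPM, and those of stromal, endothelial and muscle cells (2 of 7 listed) to 2.31 to 13.7 and 4.44 to 13.4 CPM.

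**Figure D4:**
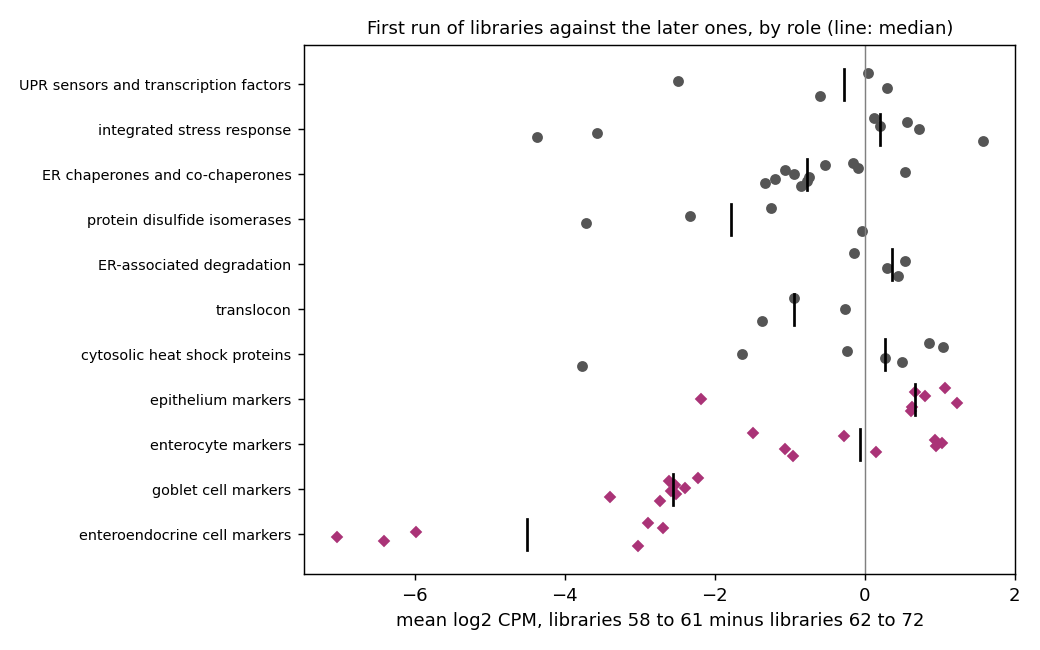
Difference in mean log2 CPM between the first run of libraries (58 to 61) and the later ones (62 to 72), 1 point per gene, for the 7 roles of the 40 genes (grey circles) and for markers of 4 cell types (diamonds), with the median of each as a line. The isomerases have a median of -1.79 and the goblet markers one of -2.55, while the median over all genes tested was -0.23.

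Other genes of the pathway gave 0 calls. Directions in these lists are on the TMM scale; with the total count as the scale 133 of the 145 were higher, in step with the shift of all genes. Of 155 listed, 148 were in the table and 145 were tested. Of those, 10 were higher and 4 lower in pMCAO at an unadjusted p under 0.05, where 4.66% and 3.77% of all genes were. With the runs 8 were higher and 6 lower, where 5.76% and 5.03% of all genes were. The ATF4 targets beyond the 40 genes had the highest median, 0.50, with 25 of 29 higher and 5 of them at an unadjusted p under 0.05. Over all genes, 7986 of 14462 were higher. With the runs the median of these targets was 0.22, with 20 of 29 higher and 3 at that level. Of the 29 targets, 8 were lower in each library of the first run than in any later one, where 9.4% of all genes were. Nars, a transfer RNA synthetase, was at 41.1 ± 12.7 CPM in sham and 59.3 ± 2.99 CPM in pMCAO (SD, n = 7 and 5), with a log2 fold change of 0.53 and an SE of 0.20 (adjusted p = 0.510). Shmt2, an enzyme of mitochondrial serine metabolism, was at 0.587 ± 0.637 and 1.89 ± 1.05 CPM, with a log2 fold change of 2.08 and an SE of 0.80 (adjusted p = 0.510). Libraries of the first run held between 0 and 0.241 CPM of Shmt2, and the later ones between 0.384 and 2.78 CPM. Only 360 counts fell on Shmt2 over all samples, so low levels could have been missed in the first run. Once the runs entered the fit, the difference shrank to 1.45 for Shmt2 (SE 0.53) and 0.46 for Nars (SE 0.17).

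Of the 27 other translocon, signal peptidase and oligosaccharyltransferase genes, 22 were higher by sign and 2 were so at an unadjusted p under 0.05, with a median of 0.22. These were Ostc and Ddost, both of the complex that attaches glycans to new proteins, with log2 fold changes of 0.56 (SE 0.22) and 0.61 (SE 0.26). Of the 27 other cytosolic and mitochondrial chaperones, 11 were higher and 16 lower (21 and 6 with the total count as the scale), and 3 were lower at that level, with a median of -0.10. Chordc1, a partner of HSP90, and Dnajb4, an HSP40, had log2 fold changes of -0.59 (SE 0.20, adjusted p = 0.428) and -0.89 (SE 0.32, adjusted p = 0.495).

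The 3 remaining lists were close to all genes. With the runs their medians were 0.04 (kinases and factors), 0.004 (ER folding) and -0.05 (degradation), and the values below are on the group alone. The 18 other kinases and factors of the stress pathways had a median of 0.11, with 1 higher at an unadjusted p under 0.05, and included Mbtps1, the protease that cuts ATF6 (log2 fold change 0.41, SE 0.18), and Eif2ak3, which encodes PERK (-0.71, SE 0.34). The 23 other ER folding genes had a median of 0.13, with 1 higher and 1 lower, namely Dnajc25 (0.62, SE 0.28) and Ero1l, the oxidase that drives disulfide formation (-0.58, SE 0.26). The 21 other degradation genes had a median of -0.04, with 1 higher, Edem3 (0.63, SE 0.27), and Vimp had a log2 fold change of 0.49 (SE 0.25).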

How the data were processed

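The authors removed ribosomal RNA, sequenced paired-end reads, aligned them with STAR to GRCm38 and assigned them to genes with featureCounts, and the deposited table holds their whole-number counts per gene. It also holds their CPM values, fold change, average expression, P value and false discovery rate, which were not used. The strand setting of the counting was not stated. A sample's group came from its label, and its column from its title.

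Counts were filtered with filterByExpr (minimum count 10), which removed 1393 genes and left 14462. TMM factors came from edgeR 4.0.16, and the groups were compared with voom in limma 3.58.1 under R 4.3.3, with no other term in the model and Benjamini-Hochberg adjustment over the genes tested (limma-voom). Tests were checked on simulated data. CPM values are TMM-scaled, log2 CPM carries a prior count of 2, and 3 counts served as the floor. Intervals cover the spread between samples. The day of collection, which the study's methods correct for, is not in the labels, so consecutive runs of 4 libraries were taken from the library numbers instead (58 to 61, 62 to 65, and 66 to 68 with 72), and these runs need not be days. As alternatives, the quasi-likelihood test of edgeR and DESeq2 1.42.0 were run, and further fits used DESeq2's size factors in voom, no filter, no mitochondrial ribosomal RNA, run terms, a replicate block, leaving out the first run or each sample and, added after seeing the data, total counts as the scale.

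The 40 genes and all lists were chosen with earlier results of these data known. Values were given for Ern1, Ern2, Atf6, Xbp1, Atf4, Ddit3, Hspa5, Hspa1a and Hspa1b by role, for the 12 genes with the smallest unadjusted p, and for 2 genes of each other list by the same measure. Further values were chosen after they were seen. Exon lengths and overlaps came from GENCODE M21 (GRCm38). A planned search of protein endings was not run.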

Additional observations from a re-analysis of the deposited data

Results flagged for a closer look

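In 80 groups (40 genes in each of the sham and pMCAO samples), 5 had a sample whose gap to the nearest other sample passed Dixon's 95% critical value for its group size, where chance gives about 4. Ern1, the sensor IRE1 alpha, had a log2 CPM of 5.37 in pMCAO 2 against 4.13 to 4.41 in the other pMCAO samples. Ppp1r15a, the phosphatase subunit GADD34, had 2.74 in pMCAO 4 against 3.86 to 4.21. Asns had 1.05 in pMCAO 1 against 3.78 to 4.37, and Hspb1 had -3.30 in pMCAO 1, where its count was 0, against 1.15 to 2.24. Creld2, a chaperone of the ER, had 0.69 in sham 1 against 2.63 to 3.85 in the other sham samples. The samples pMCAO 1 and sham 1 belong to the first run of libraries.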

How the results depend on the processing

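The number of the 40 genes at an unadjusted p under 0.05 was 7 in the reported fit, where 1219 of 14462 genes were. It was 4 with edgeR (6.43% of all genes), 4 with DESeq2 (7.97%) and 1 with the total count as the scale (7.79%). With the replicate block it was 10 (2468 of 14462 genes). When each sample was left out in turn it was between 3 and 10. It was 3 without pMCAO 5 (878 of 14903 genes), 4 without pMCAO 2 (1063 of 14703) or pMCAO 4 (937 of 15003), and 10 without pMCAO 1 (2138 of 15162). The number of the 40 genes in which the first run lay below the later libraries was 11 (9.4% of all genes tested). It was 17 with the total count as the scale, on which the share over all genes was not counted. The directions of 3 genes named by role were not stable. Ern2 (0.33) became -0.032 with a term for the first run, -0.037 with 3 runs and -0.061 without the first run. Atf4 (-0.05) became 0.031 with the replicate block and 0.26 with the total count, and was -0.103 to 0.046 when each sample was left out, with the positive value without sham 7. Hspa5 (-0.05) became 0.066 with the replicate block and 0.23 with the total count, and was -0.124 to 0.022 when each sample was left out, with 0.022, 0.0064 and 0.0043 without sham 6, pMCAO 4 and pMCAO 5. The causes were not tested.

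The replicate numbers shared by the groups do not pair the samples, since the correlations of same-numbered samples were 0.40, -0.24, -0.16, 0.16 and 0.08, and of the 5 only number 1 correlated best with its own number. With the replicate block 1 of the 40 genes was called and 1 was at an adjusted p of at most 0.05, namely Ppp1r15a (log2 fold change -1.15, adjusted p = 0.0289, limma-voom), and 243 of all genes were called. DESeq2 called 68 of all genes, the first-run term 16, the 3 runs 51 and the total count 3, with 0 of the 40 among them, and leaving out each sample gave 0 to 17. The difference in total counts ranged over 6306000 to 11531900 when each sample was left out (exact permutation p = 0.0303 without sham 6 and 0.0364 without pMCAO 4), and that in mitochondrial ribosomal share over -14.6 to -7.93 percentage points (p = 0.0433 without sham 6). Counts of Chac1, Hspb1, Pdia6, Asns and Pdia4 in the first run were 0 to 46. Total counts were 7418730 to 15852161 in the first run and 7852208 to 31925579 in the later libraries. The part of depth in these small counts was not tested.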
